A study of Mus musculus with 6 samples.

Results

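The transcription factors NRF2 (gene Nfe2l2) and NRF1 (Nfe2l1), the inhibitor of NRF2 (Keap1), the competing repressor BACH1 (Bach1) and the small Maf partners (Mafg, Mafk and Maff) were followed in RAW 264.7 cells, a mouse macrophage-like line. The 7 genes were taken by symbol from a count table of 21604 gene symbols, and each of the 7 was found and passed the filter on low counts that left 13014 genes for testing. In 3 samples, called LPS plus PE-CUR here, the cells received PE-CUR at 2 mg/mL and lipopolysaccharide (LPS), at 100 ng/mL for 24 h, LPS being a part of the bacterial outer membrane to which macrophages respond. In the other 3, called LPS, they received the same LPS dose for 24 h. PE-CUR is named in the labels without further detail, and the series title speaks of a Pickering emulsion (droplets coated by particles) that carries curcumin, a polyphenol of turmeric. Both groups are labelled wild type and, as cell type, bone marrow macrophage, and both received LPS. The labels list no cells without LPS, with an empty emulsion or with free curcumin, and every direction follows the labels as given.

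NRF2 and NRF1 belong to the cap'n'collar family of basic leucine zipper proteins. Each pairs with a small Maf protein on antioxidant response elements, where NRF2 drives genes of glutathione synthesis, haem breakdown and the pentose phosphate route, and NRF1 drives proteasome subunits. KEAP1 holds NRF2 in the cytoplasm and hands it to a CUL3 ubiquitin ligase until electrophiles or oxidants modify its cysteines. BACH1 pairs with the same small Mafs on the same elements, represses genes such as Hmox1, and leaves them when it binds haem. Much of this control acts on the proteins, which RNA sequencing does not measure.

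Total counts per library were 28530750 to 35276533, and the 7 genes had between 516 and 18541 counts in each library. The 10 macrophage markers summed to 9934 to 10770 CPM (counts per 1000000 counts of the library) in LPS plus PE-CUR and 11840 to 12330 CPM in LPS, with each of the 10 detected. Lyz2 held the largest part, at 5222, 4328 and 4689 CPM in LPS plus PE-CUR replicates 1 to 3. In LPS replicates 1 to 3 it had 6905, 6180 and 6546 CPM. The markers did not move as a group. Lyz2, Adgre1 and Itgam were lower in every LPS plus PE-CUR library than in any LPS library. Csf1r and Cd14 were higher, and the other markers overlapped. Transcripts of hepatocytes were unequal between the libraries. The 12 hepatocyte markers summed to 15.5 to 107.9 CPM in LPS plus PE-CUR and 85.9 to 105.1 CPM in LPS. Among them Ambp did not follow the others, with 473, 411 and 326 counts in LPS plus PE-CUR replicates 1 to 3. It had 235, 205 and 184 counts in LPS replicates 1 to 3. Trf followed the others only in part, with 127, 134 and 400 counts in LPS plus PE-CUR replicates 1 to 3. In LPS replicates 1 to 3 Trf had 854, 930 and 1024 counts. Alb, the albumin gene, had 1, 0 and 1648 counts in LPS plus PE-CUR replicates 1 to 3, against 1600, 1081 and 1711 counts in LPS replicates 1 to 3. Its part in the results was not tested, but the folds of the 7 genes in the 4 albumin-bearing libraries alone are given. Other marker sums were at most 12.6 CPM in LPS plus PE-CUR and 7.37 CPM in LPS (fibroblast, erythroid, T cell, B cell, neutrophil, epithelium and muscle). The 12.6 CPM was the fibroblast sum of LPS plus PE-CUR replicate 2. That library had 180 counts of Col1a1, 187 of Col1a2 and 57 of Col3a1. Each of these collagen genes had at most 15 counts in any other library. The part of the collagen transcripts in the results was not tested. In a bulk sample fewer cells of a kind and less RNA per cell cannot be told apart.

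All 7 genes passed the test between the groups (edgeR quasi-likelihood fit of 3 libraries each, Benjamini-Hochberg adjusted p below 0.05). Keap1 was higher in LPS plus PE-CUR, and the other 6 were lower. The share of all 13014 tested genes that passed the same test was 63.4%, with 30.8% higher and 32.7% lower, so a call alone sets a gene little apart here. The median log2 fold change of the 7 was -0.47, against -0.03 over all tested genes. Maff and Bach1 fell at least 2-fold, which 11.5% of tested genes did. In each of the 7 the CPM values of the groups did not overlap, as in 69.0% of the genes tested. The labels do not state separate cultures, so a p-value here measures only the spread between the samples at hand, and that spread may be technical. In the 4 libraries with albumin transcripts, 1 of LPS plus PE-CUR and 3 of LPS, the log2 fold changes were -0.39 for Nfe2l1, 0.52 for Keap1, -0.94 for Bach1, -0.30 for Mafg, -0.59 for Mafk and -1.25 for Maff, with every one of these 6 still passing, and -0.14 for Nfe2l2 (edgeR adjusted p = 0.164).

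**Figure D1:**
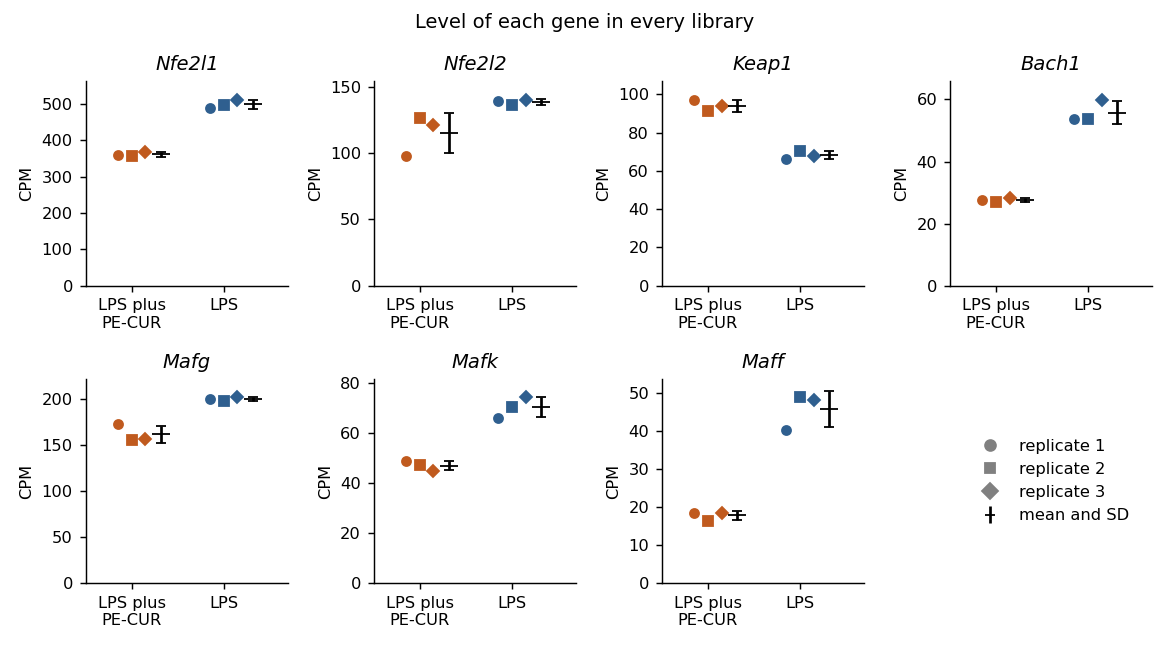
Level of each gene in CPM (y axis from 0) in every library, with LPS plus PE-CUR at the left of each panel and LPS at the right. Symbols are replicates and bars are mean and SD of 3 libraries. Keap1 is the gene with the higher values in LPS plus PE-CUR, and LPS plus PE-CUR replicate 1 stands lowest for Nfe2l2 at 98.0 CPM.

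Nfe2l2 encodes NRF2 and lies on the minus strand at chr2:75675513-75704641 (build mm10). It had 98.0, 127 and 121 CPM in LPS plus PE-CUR replicates 1 to 3, against 139, 137 and 140 CPM in LPS replicates 1 to 3. The LPS plus PE-CUR values were thus all lower, with replicate 1 below the other two. The gene averaged 115 ± 15.3 CPM in LPS plus PE-CUR and 139 ± 2.02 CPM in LPS (SD, n = 3 each, as for every ± here), and its log2 fold change was -0.27 (SE 0.09, edgeR adjusted p = 0.0221). This was the smallest of the 7 changes and the least secure. Without LPS plus PE-CUR replicate 1 the log2 fold change was -0.13 (edgeR adjusted p = 0.0721). It also missed the threshold without LPS replicate 1 (-0.23, edgeR adjusted p = 0.0941), LPS replicate 2 (-0.24, edgeR adjusted p = 0.0842) or LPS replicate 3 (-0.22, edgeR adjusted p = 0.101).

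Nfe2l1 encodes NRF1, which is made in the endoplasmic reticulum and freed by cleavage when proteasomes are short. The gene lies on the minus strand at chr11:96817414-96829968. It had 361, 356 and 368 CPM in LPS plus PE-CUR replicates 1 to 3, against 488, 497 and 512 CPM in LPS replicates 1 to 3. The groups stood far apart relative to their spread, with an SD of 5.86 CPM in LPS plus PE-CUR and 12.2 CPM in LPS. Its log2 fold change was -0.47 (SE 0.05, edgeR adjusted p = 1.49e-05).

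Keap1, the gene of the NRF2 inhibitor, lies on the minus strand at chr9:21229730-21239361. It had 97.3, 91.1 and 93.8 CPM in LPS plus PE-CUR replicates 1 to 3, against 66.3, 70.4 and 67.7 CPM in LPS replicates 1 to 3. All LPS plus PE-CUR values were above all LPS values, and the log2 fold change was 0.47 (SE 0.06, edgeR adjusted p = 4.40e-05), a level 38.1% higher. An antisense transcript, Gm16754, overlaps a Keap1 exon on the opposite strand. Whether counting used strand is not given in the sources used here. Reads of the pair can therefore not be told apart.

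Bach1, the gene of the haem-sensing repressor, lies on the plus strand at chr16:87698945-87733346. It had 27.7, 26.9 and 28.1 CPM in LPS plus PE-CUR replicates 1 to 3, against 53.7, 53.7 and 60.0 CPM in LPS replicates 1 to 3. Every LPS plus PE-CUR value was thus far below the lowest LPS value, with averages of 27.6 ± 0.591 CPM in LPS plus PE-CUR and 55.8 ± 3.62 CPM in LPS. Its log2 fold change was -1.02 (SE 0.07, edgeR adjusted p = 6.43e-07), a 2.02-fold fall.

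The small Maf proteins lack an activation domain of their own, so a dimer of small Mafs represses and a dimer with NRF2 or NRF1 activates. Maff, on the plus strand at chr15:79346621-79359076, had 18.5, 16.6 and 18.6 CPM in LPS plus PE-CUR replicates 1 to 3, against 40.4, 49.0 and 48.4 CPM in LPS replicates 1 to 3. It was the most changed of the 7, falling 2.57-fold (log2 fold change -1.36, SE 0.09, edgeR adjusted p = 5.73e-07). Mafk, on the plus strand at chr5:139791513-139802653, had 48.9, 47.3 and 45.0 CPM in LPS plus PE-CUR replicates 1 to 3, against 66.2, 70.6 and 74.3 CPM in LPS replicates 1 to 3 (log2 fold change -0.58, SE 0.07, edgeR adjusted p = 2.46e-05). Mafg, on the minus strand at chr11:120625117-120633600, had 173, 156 and 156 CPM in LPS plus PE-CUR replicates 1 to 3, against 200, 198 and 202 CPM in LPS replicates 1 to 3 (log2 fold change -0.31, SE 0.06, edgeR adjusted p = 8.02e-04). All 3 small Maf genes were thus lower in every LPS plus PE-CUR library than in any LPS library. An exon of Mafg overlaps the neighbouring gene Sirt7, which had 907 to 1301 counts per library on the same strand, so a part of the Mafg reads could be shared. Mafk overlaps Tmem184a, which had 0 to 2 counts.

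**Figure D2:**
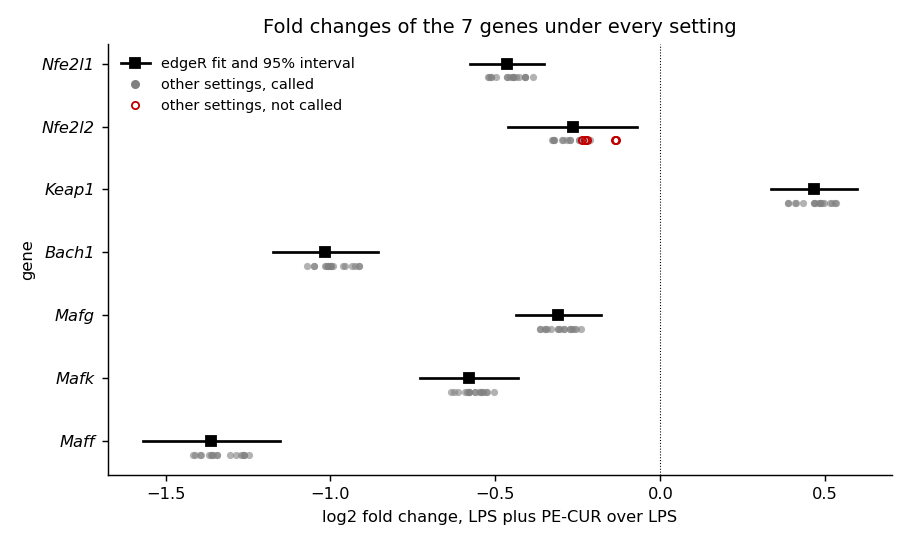
Log2 fold change of LPS plus PE-CUR over LPS (x axis) for each gene (y axis). Squares and lines give the edgeR value and its 95% interval, and the dots under each give the other settings, with open red dots where the adjusted p was 0.05 or more. Only Nfe2l2 has open dots, 5 of 17, and only Keap1 lies above 0.

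Because 6 of the 7 moved the same way, their promoters were read for sites that the family itself can bind. The RefSeq windows used here, the 250 bases before an annotated start (build GRCm38.p6, the assembly of mm10), gave 1 window each for Nfe2l2, Keap1, Bach1, Mafg and Mafk, 3 for Maff and 5 for Nfe2l1. The core of the antioxidant response element, TGACNNNGC on either strand, occurred in a window of Nfe2l2, Mafg, Mafk and Maff, and it occurred in 10.2% of 32817 mouse promoter windows of that length. It was not in these windows of Nfe2l1, Keap1 or Bach1. The 4 windows that hold it are shown because they carry the element through which NRF2, NRF1 and BACH1 act, with the element and any CACGTG E-box in capitals. They are chr2:75704664-75704913 on the minus strand for Nfe2l2, chr11:120633548-120633797 on the minus strand for Mafg, chr5:139791286-139791535 on the plus strand for Mafk and chr15:79346371-79346620 on the plus strand for Maff.
Nfe2l2: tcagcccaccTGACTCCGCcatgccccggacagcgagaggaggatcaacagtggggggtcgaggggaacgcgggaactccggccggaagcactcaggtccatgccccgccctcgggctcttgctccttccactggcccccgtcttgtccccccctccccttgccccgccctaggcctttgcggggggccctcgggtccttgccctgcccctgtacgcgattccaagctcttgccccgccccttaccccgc
Mafg: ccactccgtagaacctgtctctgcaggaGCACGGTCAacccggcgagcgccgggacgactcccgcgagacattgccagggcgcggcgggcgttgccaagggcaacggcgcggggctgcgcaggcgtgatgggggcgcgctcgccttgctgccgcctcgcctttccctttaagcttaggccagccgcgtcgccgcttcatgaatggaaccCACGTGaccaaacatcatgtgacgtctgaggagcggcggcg
Mafk: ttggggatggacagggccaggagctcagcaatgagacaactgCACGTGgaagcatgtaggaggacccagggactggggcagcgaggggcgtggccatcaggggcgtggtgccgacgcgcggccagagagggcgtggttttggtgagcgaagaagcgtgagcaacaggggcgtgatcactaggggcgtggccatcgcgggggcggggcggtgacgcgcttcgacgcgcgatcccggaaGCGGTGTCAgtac
Maff: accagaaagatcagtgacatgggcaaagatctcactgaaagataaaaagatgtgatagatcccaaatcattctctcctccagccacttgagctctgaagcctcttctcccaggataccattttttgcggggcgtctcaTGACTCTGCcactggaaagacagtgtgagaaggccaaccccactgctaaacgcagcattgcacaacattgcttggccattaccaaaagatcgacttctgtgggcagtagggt
Counted from the annotated start, the element began at position -240 in Nfe2l2, -222 in Mafg, -13 in Mafk and -112 in Maff, and in Mafg and Mafk it lay on the opposite strand. CACGTG, a site of basic helix-loop-helix factors that 6.02% of windows hold, occurred in Mafg, Mafk and a second Maff window. That second window, chr15:79347270-79347519, also held a cyclic AMP response element, TGACGTCA, found in 1.55% of windows. The AP-1 site TGANTCA, found in 6.75% of windows, was in no window of the 7 genes. Each motif was searched on both strands, no matches overlapped, and a match describes letters and does not show binding. The genes with the core fell by 0.27 (Nfe2l2), 0.31 (Mafg), 0.58 (Mafk) and 1.36 (Maff) on the log2 scale, and those without it fell by 0.47 (Nfe2l1) and 1.02 (Bach1) or rose (Keap1).

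The order of the genes was read per length, in FPKM (counts per length of gene and per library total). In LPS plus PE-CUR the order was Nfe2l1 at 67.2 ± 1.99, Nfe2l2 at 45.2 ± 4.98, Keap1 at 20.6 ± 1.16, Mafg at 17.3 ± 1.46, Maff at 5.34 ± 0.428, Mafk at 4.92 ± 0.302 and Bach1 at 4.07 ± 0.151 FPKM. The ranges of Maff and Mafk overlapped there, and no other neighbours did. In LPS the order was Nfe2l1 at 96.5 ± 2.82, Nfe2l2 at 56.6 ± 1.12, Mafg at 22.2 ± 0.318, Keap1 at 15.5 ± 0.439, Maff at 14.2 ± 1.51, Bach1 at 8.55 ± 0.604 and Mafk at 7.64 ± 0.472 FPKM. There the ranges of Keap1 and Maff overlapped. Keap1 thus stood above Mafg in each LPS plus PE-CUR library and below it in each LPS library. Nfe2l1 exceeded 92.5% of tested genes by mean FPKM in LPS plus PE-CUR and 95.5% in LPS, whereas Bach1 exceeded 40.0% in LPS plus PE-CUR and 55.2% in LPS.

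Ratios within a library need no scaling between libraries. The FPKM of Nfe2l2 was 9.41, 12.5 and 11.5 times that of Bach1 in LPS plus PE-CUR replicates 1 to 3, against 6.90, 6.77 and 6.24 times in LPS replicates 1 to 3. Relative to the transcript of its competitor, NRF2 message was thus higher in every LPS plus PE-CUR library (difference in log2 ratio 0.74, exact two-sided permutation p = 0.1, the smallest that 3 against 3 allow). Against Keap1 the direction was opposite. Nfe2l2 stood at 1.80, 2.49 and 2.32 times Keap1 in LPS plus PE-CUR replicates 1 to 3, against 3.76, 3.47 and 3.72 times in LPS replicates 1 to 3 (difference in log2 ratio -0.74, exact two-sided permutation p = 0.1). Nfe2l2 stood at 0.573, 0.752 and 0.698 times Nfe2l1 in LPS plus PE-CUR replicates 1 to 3, against 0.602, 0.580 and 0.579 times in LPS replicates 1 to 3. These values overlapped (difference in log2 ratio 0.19, exact two-sided permutation p = 0.4).

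Shares of the small Maf pool did not overlap between the groups for Maff and Mafg. Maff gave 19.0%, 18.6% and 20.6% of the summed small Maf FPKM in replicates 1 to 3 of LPS plus PE-CUR, against 29.8%, 33.9% and 33.0% in LPS replicates 1 to 3 (exact two-sided permutation p = 0.1). Mafg gave 63.5%, 62.8% and 61.9% in replicates 1 to 3 of LPS plus PE-CUR, against 53.0%, 49.1% and 49.3% in LPS replicates 1 to 3 (exact two-sided permutation p = 0.1). The Mafk share averaged 17.9% ± 0.652 in LPS plus PE-CUR and 17.3% ± 0.368 in LPS, with overlapping values (exact two-sided permutation p = 0.3). Its direction flipped when shares were taken from counts and not per length. The 3 genes together summed to 27.5 ± 2.04 FPKM in LPS plus PE-CUR and 44.1 ± 2.01 FPKM in LPS. Over these 6 comparisons of ratios and shares the Benjamini-Hochberg adjusted p was 0.15 for the 4 smallest, 0.36 for the Mafk share and 0.4 for Nfe2l2 to Nfe2l1 (exact permutation tests), so no comparison could pass 0.05 in this design.

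**Figure D3:**
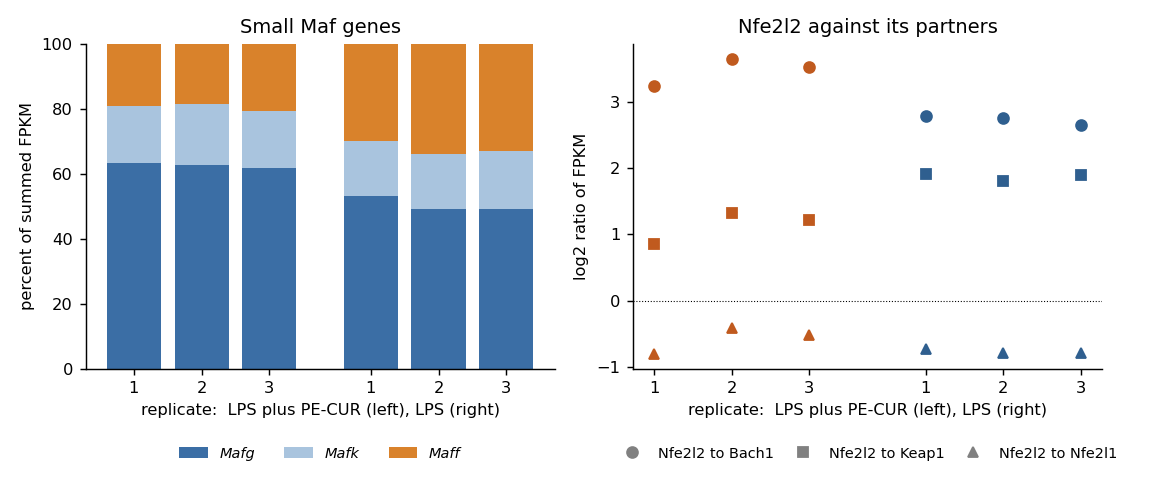
Left, percent of the summed FPKM of the small Maf genes held by each gene, and right, log2 ratio of Nfe2l2 to Bach1, Keap1 and Nfe2l1 FPKM, for each library, with the LPS plus PE-CUR replicates left of the LPS replicates. The Maff part is smaller, the Nfe2l2 to Bach1 ratio higher and the Nfe2l2 to Keap1 ratio lower in all 3 LPS plus PE-CUR libraries, whereas the Nfe2l2 to Nfe2l1 ratios overlap.

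Several relatives of the family had too few reads for a test. Nfe2, the erythroid member, had 1 to 3 counts in LPS plus PE-CUR and 0 to 5 in LPS. Nfe2l3, encoding NRF3, had 0 to 1 counts in each group, and Bach2, the lymphoid repressor, had 0 counts in LPS plus PE-CUR and 1 to 3 in LPS. The large Maf genes Maf and Mafa had at most 5 counts in a library.

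Over all tested genes 30.8% were higher, 32.7% were lower and the median log2 fold change was -0.03, beside which the following gene lists are given. Among the proteins that turn NRF2 over or bind KEAP1, 8 of 18 tested genes were higher in LPS plus PE-CUR, 6 were lower and 4 did not pass, with a median log2 fold change of 0.02. Cul3, the ligase scaffold that KEAP1 joins, did not pass at 167 ± 4.09 CPM in LPS plus PE-CUR and 164 ± 2.03 CPM in LPS (edgeR adjusted p = 0.696). Its RING partner Rbx1 rose to 72.4 ± 4.37 CPM in LPS plus PE-CUR, against 44.2 ± 3.61 CPM in LPS, and Cand1, which exchanges the adaptors of cullin ligases, to 190 ± 4.43 CPM in LPS plus PE-CUR, against 122 ± 3.13 CPM in LPS. Proteins that compete with NRF2 for KEAP1 went both ways. Sqstm1, the autophagy receptor p62, fell to 993 ± 113 CPM in LPS plus PE-CUR, against 3084 ± 154 CPM in LPS (log2 fold change -1.64, edgeR adjusted p = 1.25e-07). Palb2, a DNA repair protein with a KEAP1-binding motif, rose to 13.8 ± 0.508 CPM in LPS plus PE-CUR, against 4.33 ± 0.231 CPM in LPS (log2 fold change 1.67, edgeR adjusted p = 5.80e-07). Pgam5, a mitochondrial phosphatase that KEAP1 binds, rose to 66.3 ± 2.31 CPM in LPS plus PE-CUR, against 47.0 ± 1.71 CPM in LPS. Gsk3b, a kinase that marks NRF2 for a second ligase, fell to 110 ± 6.27 CPM in LPS plus PE-CUR, against 161 ± 7.13 CPM in LPS. The related Gsk3a went the other way, to 87.4 ± 6.94 CPM in LPS plus PE-CUR, against 70.1 ± 6.99 CPM in LPS (log2 fold change 0.32, edgeR adjusted p = 0.00667). Sesn2, a sestrin that aids the autophagy of KEAP1, and Syvn1, a ligase of the endoplasmic reticulum, fell by 0.41 and 0.36 on the log2 scale. The number of lower genes was 4 in 11 of the 17 other settings, among them every fit without 1 library, DESeq2 and the 4 libraries with albumin transcripts. Sqstm1, Gsk3b, Sesn2 and Syvn1 passed as lower in all 17. With unfiltered log2(FPKM + 1) values the number of higher genes was 5.

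Most genes that process or degrade NRF1 fell with Nfe2l1. Of 10 tested, 6 were lower, 2 higher and 2 did not pass, with a median log2 fold change of -0.34. Ddi2, the protease that cleaves NRF1, fell to 21.7 ± 1.64 CPM in LPS plus PE-CUR, against 33.2 ± 2.43 CPM in LPS. Sel1l, an adaptor of the degradation of endoplasmic reticulum proteins, fell to 191 ± 8.97 CPM in LPS plus PE-CUR, against 345 ± 17.1 CPM in LPS (log2 fold change -0.85, edgeR adjusted p = 6.60e-07). Ogt, the enzyme that adds N-acetylglucosamine to NRF1, and Ube4a, a ubiquitin chain factor, fell by 0.44 and 0.32 on the log2 scale. Hcfc1, the partner through which OGT acts, rose to 241 ± 4.72 CPM in LPS plus PE-CUR, against 118 ± 8.57 CPM in LPS (log2 fold change 1.04, edgeR adjusted p = 2.99e-07), and Vcp, the segregase that extracts NRF1, to 376 ± 13.9 CPM in LPS plus PE-CUR, against 297 ± 15.7 CPM in LPS. Ngly1, which removes the glycans of NRF1, stood at 13.3 ± 2.06 CPM in LPS plus PE-CUR and 15.4 ± 0.427 CPM in LPS and did not pass, but without replicate 2 of LPS plus PE-CUR it passed as lower, at -0.30 on the log2 scale (edgeR adjusted p = 0.0372).

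Most proteasome subunits, the standard targets of NRF1, were higher in LPS plus PE-CUR, while Nfe2l1 was lower. Of 32 tested, 20 were higher, 1 was lower and 11 did not pass, with a median log2 fold change of 0.28, against the 30.8% of all tested genes that were higher. Psmd3 and Psmd7 of the regulatory lid rose by 0.62 and 0.55 on the log2 scale, Psma6 of the core ring by 0.51 and Psmc3 of the ATPase base by 0.49. Psma6 stood at 213 ± 2.86 CPM in LPS plus PE-CUR and 150 ± 4.60 CPM in LPS. Psmd4, the ubiquitin receptor, was the lower one at 165 ± 3.82 CPM in LPS plus PE-CUR and 190 ± 7.87 CPM in LPS (log2 fold change -0.20). Its call ended without LPS plus PE-CUR replicate 2 (-0.15), LPS replicate 2 (-0.13) or LPS replicate 3 (-0.17), with no filter on low counts (-0.14), and in the 4 libraries with albumin transcripts (-0.11).

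Most genes that BACH1 represses were lower, as Bach1 itself was. Of 9 tested, 8 were lower, 0 higher and 1 did not pass, with a median log2 fold change of -1.23. At an unadjusted p under 0.05 the edgeR number of higher genes was 0 as well, and DESeq2 and limma-voom also gave 0. Hmox1, which degrades haem, fell 4.23-fold, to 1011 ± 62.4 CPM in LPS plus PE-CUR, against 4281 ± 349 CPM in LPS (edgeR adjusted p = 2.53e-08). Slc40a1, the iron exporter ferroportin, fell 4.95-fold, to 20.1 ± 2.92 CPM in LPS plus PE-CUR, against 99.6 ± 11.4 CPM in LPS (edgeR adjusted p = 8.07e-07). Slc48a1, a haem transporter, fell to 55.9 ± 1.60 CPM in LPS plus PE-CUR, against 148 ± 13.0 CPM in LPS, and Gclm, the modifier subunit of glutathione synthesis, by 1.33 on the log2 scale. The ferritin genes Fth1 and Ftl1 fell by 0.46 and 0.72 on the log2 scale. Me1, the malic enzyme, was the member that did not pass, with 153, 85.2 and 80.8 CPM in LPS plus PE-CUR replicates 1 to 3, against 100, 104 and 106 CPM in LPS replicates 1 to 3. LPS plus PE-CUR replicate 1 alone was above LPS there, and without it Me1 was called lower (log2 fold change 0.04 with it and -0.29 without, edgeR adjusted p = 0.00167). That is the library that was also lowest for Nfe2l2. Spic, a factor that haem induces in macrophages, and Nqo1 had at most 3 and 17 counts and were not tested.

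The list of NRF2 targets shares 6 genes with the BACH1 list (Hmox1, Nqo1, Gclm, Slc7a11, Blvrb and Me1). Of its 25 tested genes, 15 were lower, 4 higher and 6 did not pass, and the median log2 fold change was -0.41. The 4 lower genes with the smallest p were Srxn1, which repairs oxidised peroxiredoxins (-2.66), Hmox1 (-2.08), Sqstm1 (-1.64) and Cat, catalase (-1.61 on the log2 scale). The 4 higher genes were Gsr, glutathione reductase, Txn1, thioredoxin, Tkt, transketolase, and Ugdh, which makes UDP-glucuronate. Gsr stood at 91.0 ± 4.36 CPM in LPS plus PE-CUR and 62.2 ± 0.387 CPM in LPS. Txn1 stood at 365 ± 34.5 CPM in LPS plus PE-CUR and 248 ± 13.0 CPM in LPS. Tkt stood at 377 ± 8.61 CPM in LPS plus PE-CUR and 272 ± 15.3 CPM in LPS. The subunits of glutamate-cysteine ligase differed, with Gclm lower and Gclc at 71.3 ± 3.13 CPM in LPS plus PE-CUR and 74.7 ± 0.985 CPM in LPS (edgeR adjusted p = 0.361).

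Genes that degrade BACH1 or make and break haem, the ligand that releases it, were divided. Of 13 tested, 2 were higher, 4 lower and 7 did not pass, with a median log2 fold change of -0.10. Fbxo22, the ligase adaptor for haem-bound BACH1, did not pass at 69.1 ± 2.18 CPM in LPS plus PE-CUR and 71.9 ± 2.94 CPM in LPS (edgeR adjusted p = 0.428). Of the haem synthesis enzymes, Alad rose to 29.4 ± 1.75 CPM in LPS plus PE-CUR, against 24.4 ± 0.526 CPM in LPS. Uros, a later enzyme, fell to 7.52 ± 0.678 CPM in LPS plus PE-CUR, against 12.5 ± 0.0754 CPM in LPS. Beside Hmox1 and Uros, the nuclear exporter Xpo1 and the last enzyme Fech were lower, by 0.53 and 0.23 on the log2 scale, with calls that ended when some single libraries were left out. The Xpo1 call ended without LPS plus PE-CUR replicate 3 (-0.50), LPS replicate 1 (-0.43) or LPS replicate 3 (-0.49). The Fech call ended without LPS plus PE-CUR replicate 2 (-0.20) or replicate 3 (-0.19), without LPS replicate 2 (-0.19) or replicate 3 (-0.15), with no filter on low counts (-0.18), and in the 4 libraries with albumin transcripts (-0.21). The number of lower genes was 2 without replicate 3 of LPS plus PE-CUR and also 2 without LPS replicate 3, and the number of higher genes was 1 with unfiltered log2(FPKM + 1) and with log2(FPKM + 0.1) values.

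**Figure D4:**
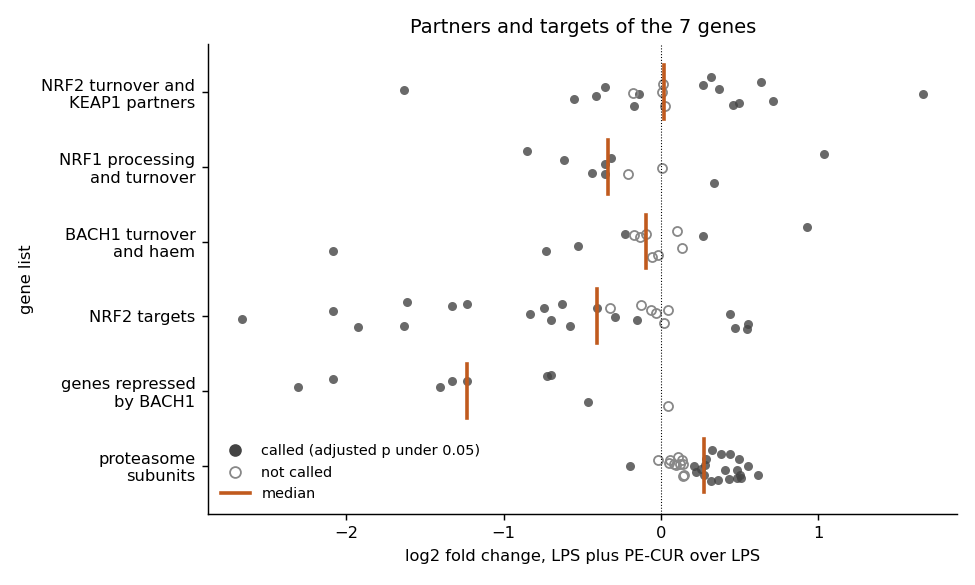
Log2 fold change of LPS plus PE-CUR over LPS (x axis) of every tested member of 6 gene lists (y axis, vertical scatter for visibility). Filled points passed the edgeR test, open points did not, and bars are list medians. Genes repressed by BACH1 lie lowest with a median of -1.23, and proteasome subunits lie above 0 with a median of 0.28.

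The genes most like each of the 7 were found by the smallest root mean square difference of log2 CPM, centred on each gene's mean, over the 6 libraries, among named genes with a mean of at least 5 CPM. The closest match of all was Map3k5, the stress kinase ASK1, to Bach1 (difference 0.00628), at 27.2 CPM in LPS plus PE-CUR and 55.1 CPM in LPS, and the next for Bach1 was Rnf11 (0.0193). Keap1 was matched by Klhl5, another Kelch protein gene (0.0110), and Pgls, a pentose phosphate enzyme (0.0132). Nfe2l1 was matched by Vav1, an exchange factor of immune cells (0.0209), and St7 (0.0211). Nfe2l2, with its low LPS plus PE-CUR replicate 1, was matched by Ncoa4, the receptor that delivers ferritin to autophagy (0.0274), and Trmt10c (0.0332). Mafg was matched by Cdk17 (0.0181) and Slc35e4 (0.0186), Mafk by Slc35f6 (0.0259) and Bloc1s3 (0.0316), and Maff by Ndrg1 (0.0409) and Coro2a (0.0490). The 6 libraries form 2 groups, so genes with a like fold change come out as alike. Among the 7 themselves the nearest pair was Nfe2l1 and Mafk (0.0777) and the farthest Keap1 and Maff (0.913).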

How the data were processed

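The authors deposited whole-number counts per gene symbol and FPKM values for the same 21604 symbols in 6 libraries. Build mm10 and the tools HTSeq, DESeq2, fastp and SAMtools are named, per the submitters' processing notes. Which aligner, annotation and strand setting were used is not given in the sources used here. The deposited FPKM values are the counts rescaled by gene length and library total, as held for 100% of 105337 nonzero values within a relative tolerance of 0.0001, so they add no second measurement.

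The counts of all genes were fitted with edgeR 4.0.16 in R 4.3.3 (filterByExpr, TMM factors, robust quasi-likelihood fit, group as the only term, all 6 libraries). Two-sided p-values were adjusted by the Benjamini-Hochberg method over 13014 genes with a threshold of 0.05. CPM values carry the TMM factors, except marker sums. Each fold change has LPS plus PE-CUR over LPS. Ratios and shares used FPKM and exact permutation tests. The test was tried on simulated data in which few genes changed. In the real data 63.4% of tested genes passed, so the simulation does not cover data with that many changes. At this depth 1 CPM is 28.5 to 35.3 counts. Loci come from GENCODE M21 and promoters from RefSeq, GRCm38.p6.

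The 7 genes, the lists and the tests were chosen with earlier results of these data known. The text names, per list and direction, the 4 called members of smallest p, and partners of the 7 genes as values. Me1, Ngly1, Gclc, Gsk3a, Fth1 and Ftl1 were named after their values were seen. Other settings tried were no filter, median-ratio factors, scaling by library size alone, a mean of at least 1 CPM, DESeq2 1.42.0, limma 3.58.1 (voom, log2(FPKM + 1), log2(FPKM + 0.1), unfiltered), a replicate block and each library left out. The fit of the 4 libraries with albumin transcripts was added after seeing the data. It assumes that the lone LPS plus PE-CUR library varies like the LPS ones. Some members of the lists are not reported here by name.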

Additional observations from a re-analysis of the deposited data

How the results depend on the processing

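Nfe2l1, Keap1, Bach1, Mafg, Mafk and Maff kept their direction and their call under all 17 alternatives, with log2 fold changes of -0.52 to -0.39 for Nfe2l1, 0.39 to 0.53 for Keap1, -1.07 to -0.91 for Bach1, -0.36 to -0.24 for Mafg, -0.64 to -0.50 for Mafk and -1.42 to -1.25 for Maff. Nfe2l2 stayed lower in all 17 but lost its call in 5. Over the fits that left out 1 library its log2 fold change was -0.30 to -0.13 (edgeR adjusted p from 0.0113 to 0.101), and in the 4 libraries with albumin transcripts it was -0.14 (edgeR adjusted p = 0.164). The cause was not tested. Deviations of same-numbered libraries correlated at -0.18 to -0.05, and those of differently numbered libraries at -0.05 to 0.17. With 3 libraries a group these values cannot settle whether the replicate numbers pair the libraries. With the replicate block 3708 genes were higher and 3953 lower, against 4004 and 4252 without it, and Nfe2l2 was at -0.27 (edgeR adjusted p = 0.0218). The Mafk share of the small Maf sum, 0.56 percentage points higher in LPS plus PE-CUR per length, had a difference of -1.43 points from counts, which weigh the genes by length. Leaving out a library gave differences of 0.19 to 0.78 points.

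Alternatives were examined for only some of the list genes. Among those examined that did not pass, another 3 changed sign. The log2 fold change of Cul3 was -0.031 with library size alone, -0.0078 with a mean of at least 1 CPM, -0.031 with log2(FPKM + 0.1) and -0.030 with log2(FPKM + 1), filtered or not. That of Fbxo22 was -0.061 to 0.0052 over the fits without 1 library and 0.043 in the 4 libraries with albumin transcripts. That of Me1 was -0.0048 with library size alone, -0.018 with limma-voom, -0.021 with the replicate block, -0.072 with log2(FPKM + 1), filtered or not, -0.076 with log2(FPKM + 0.1), -0.29 to 0.23 over the fits without 1 library and -0.30 in the 4 libraries with albumin transcripts. Dpp3, a KEAP1-binding peptidase counted among the lower genes, lost its call in 11 alternatives. Xpo1 lost its call with the replicate block, at -0.54 (edgeR adjusted p = 0.0791). With 3 samples a group no exact test could go below 0.1. Relatives of the family with 5 or fewer counts per library were not measurable at this depth.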
